A study of Mus musculus with 7 samples.

Results

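The cell cycle and mitosis genes were a set of 46 genes that drive the steps from G1 to cell division, taken here across 7 mouse pluripotent cell lines. Members were found as array probes that carried one of the 46 gene symbols. A symbol was listed for 42 members on 76 probes, and 38 members had a probe above the array's background (detection p under 0.01) on at least 1 array. These 38 were tested among 9212 genes in all. The platform table paired no probe with Ccnb1, Cdk4, Aurkb or Mki67. Ccnb2, Cdkn1b, Bub1 and Rbl2 were above background on no array, with lowest detection p-values of 0.239, 0.0514, 0.529 and 0.179. The threshold fell between Cdk6, whose lowest detection p was 0.00877, and Cdkn1b.

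RNA had been hybridized as biotin-labelled cRNA to Illumina bead arrays, each line on 1 array. There were 6 lines of epiblast stem cells (EpiSCs), a state known to resemble the epiblast after implantation: C1a1, T9, E5, E3, OG2.2 and OG2.1. The reference was R1, a line of embryonic stem cells (ESCs), which are nearer to the epiblast of the blastocyst. The labels state neither strain, sex, passage nor culture, and no line was sampled again, so every p-value rests on how far EpiSC lines lie apart. In each fit, limma also drew the variance of a gene toward a value fitted over all tested genes. The ESC state cannot be told apart from R1 itself.

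The cell cycle is driven by cyclins bound to cyclin-dependent kinases (CDKs). D-type cyclins and then E-type cyclins inactivate the retinoblastoma (RB) proteins, which frees E2F factors to switch on replication genes, while CDK inhibitors hold the step back. The minichromosome maintenance (Mcm) helicase is then loaded and fired at replication origins, and cyclin A, cyclin B, Cdk1, the Polo and Aurora kinases and the spindle checkpoint carry the cell through mitosis. Pluripotent cells are known for short G1 phases and fast division.

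Most members stood at like levels in the EpiSC lines and in R1. Of the 38 members tested, 0 were called higher and 2 lower in EpiSCs than in R1 by limma at an adjusted p under 0.05, against 15.2% of all genes called in either direction, 7.1% higher and 8.11% lower. The called members were the CDK inhibitor gene Cdkn2a and the spindle checkpoint kinase gene Ttk. With an unadjusted p under 0.05 there were 7 of 38 members, against 2681 of 9212 genes. The median member difference was -0.22 on the log2 scale, beside 0.05 for all genes, and 29 of 38 members differed by less than 0.6. A difference of at least 1 either way was seen for 5 members (13.2%), against 25.3% of all genes. R1 lay above all 6 EpiSC lines for 14 members (36.8%, against 26.1% of all genes) and below them for 9 (23.7%, against 29.7%). These shares were not tested. In these bulk samples, fewer cells in a phase and less RNA per cell cannot be told apart.

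**Figure D1:**
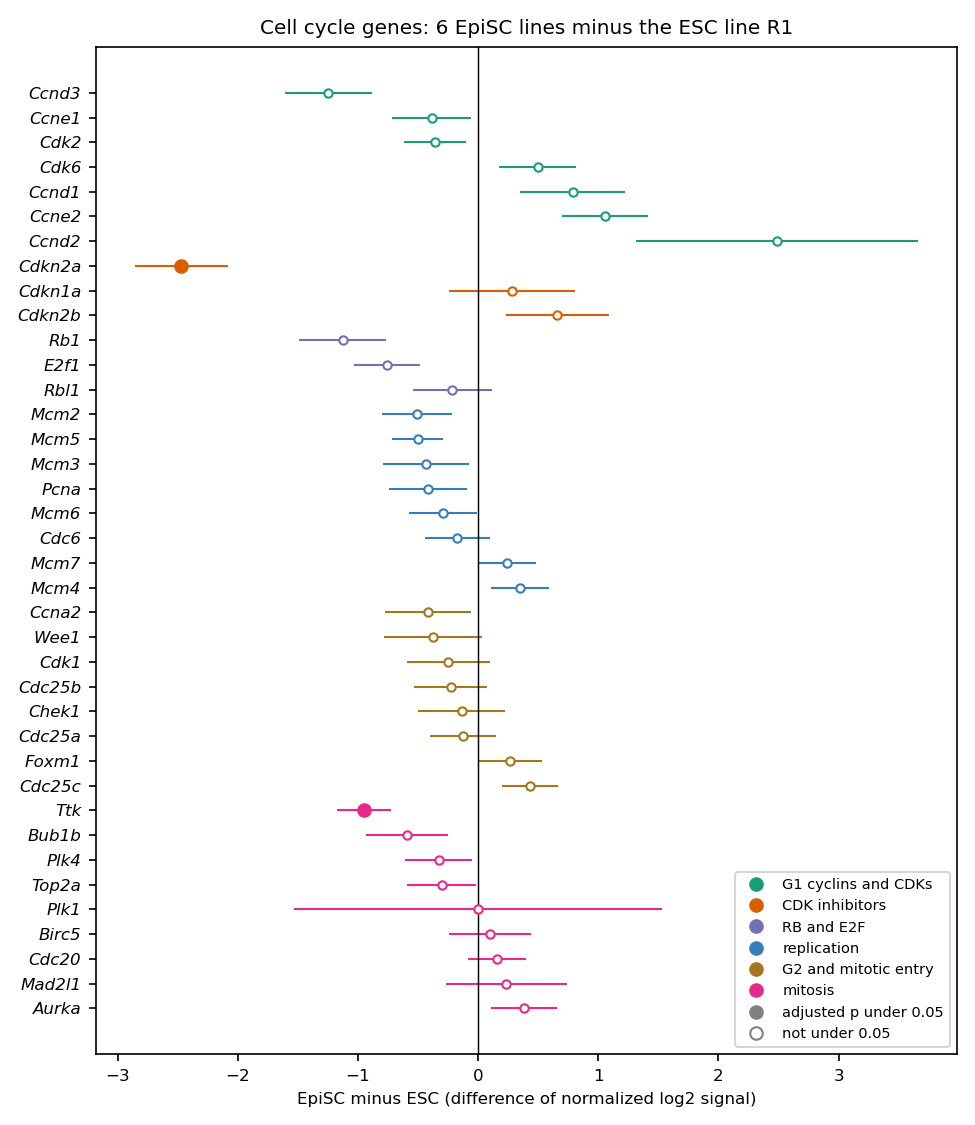
Difference between the mean of the 6 EpiSC lines and the ESC line R1 in normalized log2 signal (x axis) for the 38 tested members, grouped by role (colours). Bars are standard errors of the limma fit. The filled points, Cdkn2a at -2.47 and Ttk at -0.95, passed at an adjusted p under 0.05.

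The marker sums of the arrays went with their labels, though not every marker did. All 5 shared pluripotency markers, Pou5f1 and Sox2 among them, were above background in every line. All 7 tested naive markers were above background in R1 and 2 to 4 of them in the EpiSC lines, where their summed signal was 180.7 to 759.9 against 51600 in R1. The 6 primed markers summed to 28720 to 39280 in EpiSC lines and to 6573 in R1. Of these markers, 5 to 6 were above background in EpiSC lines and 4 in R1. Nodal went the other way, at 9.70 in R1 against 5.54 (E5) to 9.61 (E3) in EpiSC lines. Fibroblast and feeder markers, 7 of 12 tested, summed to 1692 to 4612 in EpiSC lines and 1416 in R1. Thy1 was at 8.22 (E3) to 9.61 (E5) in EpiSC lines and 6.17 in R1. Mmp2 was at 9.17 (E3) to 10.55 (OG2.2) in EpiSC lines and 7.79 in R1. Loxl1 was higher in R1 (7.06) than in any EpiSC line, where it reached 6.70 (E5). Dcn ran from 4.69 in E3, not above background, to 9.30 in E5. The part of such cells in the member differences was not tested. The sums are of normalized signals less their offset. The arrays had 7381 (E5) to 8043 (C1a1) genes above background in EpiSC lines and 7392 in R1, of 9212.

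Among the G1 genes, 0 of 7 tested members passed, and the D-type cyclins had differences of both signs. Ccnd3, a D-type cyclin gene, was at 11.66 in OG2.1, 11.55 in OG2.2, 10.69 in E3, 11.14 in E5, 11.42 in T9 and 11.40 in C1a1, against 12.56 in R1. All 6 EpiSC lines lay below R1, by -1.25 on average (SE 0.36, limma adjusted p = 0.0534), just short of the threshold. Its other probes gave -1.95 (SE 0.45, adjusted p = 0.0241) and, for a probe above background on 3 arrays, -0.95 (SE 0.35, adjusted p = 0.113) when every probe was tested on its own. The Ccnd3 difference passed with the mean of its probes (-1.38, adjusted p = 0.0130), without background correction (-1.21, adjusted p = 0.0391), with median scaling (-1.33, adjusted p = 0.0308), with a trended and robust variance (adjusted p = 0.0329) and without E3 (-1.12, adjusted p = 0.0352).

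Ccnd2, the D-type cyclin gene with the widest spread in the set after Plk1, ran the other way. It was read by 1 probe that passed the detection limit. Its level was 11.16 in OG2.1, 10.68 in OG2.2, 8.34 in E3, 7.72 in E5, 9.54 in T9 and 10.27 in C1a1, against 7.13 in R1. Every EpiSC line was above R1, but the lines themselves spanned 3.44 on the log2 scale, more than the mean difference of 2.49 (SE 1.17, adjusted p = 0.205). Its SD over the 6 lines, 1.35, exceeded that of 98.7% of all genes. Against the other 5 lines, Ccnd2 stood at 1.85 in OG2.1 (SE 1.06), 1.28 in OG2.2 (SE 1.18), -1.54 in E3 (SE 1.14) and -2.28 in E5 (SE 0.93), and none of these passed (limma adjusted p = 0.932, 0.992, 0.947 and 0.610). Markers of differentiated progeny (Sox17, Foxa2, Gata6, Mixl1, Hbb-y and Cdx2) those tested of 12 listed, summed to 1291 in OG2.1, 879.8 in OG2.2, 361.3 in E3, 54.99 in E5, 467.4 in T9 and 1097 in C1a1, against 685.4 in R1. In OG2.1 and C1a1, 5 of the 6 were above background, against 3 in E3, 3 in T9, 2 in OG2.2, 0 in E5 and 2 in R1. The OG2.2 sum was carried by Cdx2 (9.63), with Gata6 at 5.56 and the other 4 not above background, so the single markers do not follow Ccnd2 there. The part of such cells in the Ccnd2 spread was not tested.

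Ccnd1, the D-type cyclin gene often induced by growth factors, was between 10.65 (E5) and 11.74 (OG2.1) in the EpiSC lines, with a median of 11.05, and at 10.36 in R1. The difference was 0.79 (SE 0.44, adjusted p = 0.280). Its other probes gave 0.83 and 0.03. Ccne2, an E-type cyclin gene, was above background in all 6 EpiSC lines and not in R1. It averaged 6.46 ± 0.35 (SD, n = 6) in EpiSCs and 5.40 in R1, at least 1.70-fold higher, and did not pass (fitted 1.06, SE 0.36, adjusted p = 0.0880). Ccne1, its paralog, was at -0.39 (SE 0.33, adjusted p = 0.492). Cdk2, the kinase partner of the E-type cyclins, differed by -0.36 (SE 0.26, adjusted p = 0.407), and its 4 probes gave -0.32 to -0.37. Cdk6, a partner of the D-type cyclins, was above background in T9 alone.

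**Figure D2:**
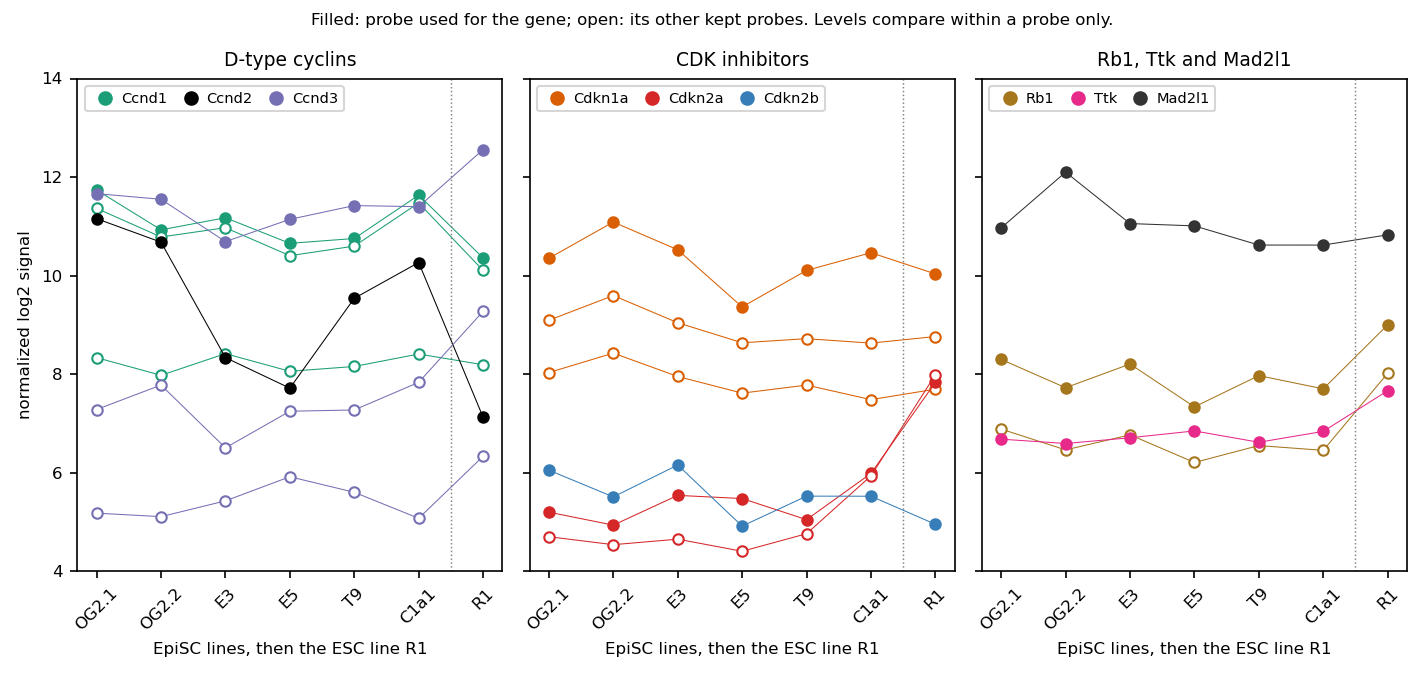
Normalized log2 signal (y axis) of D-type cyclins, CDK inhibitors, Rb1, Ttk and Mad2l1 in the 6 EpiSC lines and R1 (x axis); thin lines join values of 1 probe and stand for no order. Ccnd2 runs between 7.72 and 11.16 in EpiSC lines, Cdkn2a is highest in R1 at 7.83, and Mad2l1 peaks in OG2.2 at 12.10.

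Among the tested CDK inhibitor members, Cdkn2a was the 1 called between the EpiSC lines and R1. The locus encodes Ink4a, an inhibitor of Cdk4 and Cdk6, and Arf, which stabilises p53, from alternative first exons. Its level was 5.20 in OG2.1, 4.94 in OG2.2, 5.54 in E3, 5.47 in E5, 5.05 in T9 and 5.99 in C1a1, against 7.83 in R1. C1a1 was the only EpiSC line above background. All 6 lines read below R1, and the fitted difference was -2.47 (SE 0.38, limma adjusted p = 0.00458). Since 5 of the 6 readings were not above background, the size is a bound: EpiSCs were at least 4.51-fold lower than R1. The call held under every alternative run. A second probe gave the same order, at 4.40 to 4.76 in the 5 lines below background, 5.93 in C1a1 and 7.99 in R1 (fitted -3.16, SE 0.51, adjusted p = 0.00530 with every probe tested; at least 5.05-fold lower). Relative to the other 5 EpiSC lines, C1a1 was higher by 0.75 for the first probe (SE 0.30, limma adjusted p = 0.809; at least 1.31-fold) and by a fitted 1.32 for the second (adjusted p = 0.332; at least 1.265-fold), neither past the test.

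The 2 Cdkn2a start windows are shown because Cdkn2a was one of the called members. They come from RefSeq (GRCm38.p6) on the minus strand of chromosome 4 and run from 250 bases before to 50 after each start, 5′ to 3′. Capitals mark an E2F motif in the first, the upstream Arf start at chr4:89294570-89294869, and a CCAAT box on the opposite strand in the second, the Ink4a start at chr4:89282143-89282442. Which of the transcripts the probes read was not tested.
Cdkn2a upstream start: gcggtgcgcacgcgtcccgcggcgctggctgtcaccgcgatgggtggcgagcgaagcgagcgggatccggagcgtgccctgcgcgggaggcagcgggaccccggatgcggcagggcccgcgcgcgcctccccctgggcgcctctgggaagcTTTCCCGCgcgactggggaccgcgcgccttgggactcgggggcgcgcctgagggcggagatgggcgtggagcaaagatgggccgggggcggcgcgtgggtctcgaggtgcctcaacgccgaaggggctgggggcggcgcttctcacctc
Cdkn2a downstream start: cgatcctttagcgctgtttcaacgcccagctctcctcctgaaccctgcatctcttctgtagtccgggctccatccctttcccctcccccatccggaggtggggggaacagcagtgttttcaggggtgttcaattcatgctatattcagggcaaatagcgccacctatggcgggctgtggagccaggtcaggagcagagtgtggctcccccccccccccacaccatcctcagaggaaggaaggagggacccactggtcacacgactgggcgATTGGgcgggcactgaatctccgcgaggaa

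The other tested inhibitors, Cdkn1a and Cdkn2b, were not called between cell types. Cdkn1a, the p53-induced inhibitor p21 gene, was at 10.35 in OG2.1, 11.09 in OG2.2, 10.52 in E3, 9.36 in E5, 10.11 in T9 and 10.46 in C1a1, against 10.03 in R1. OG2.2 was highest and E5 lowest, and R1 lay inside the EpiSC range (difference 0.28, SE 0.52, limma adjusted p = 0.763). The difference from the other 5 lines was -1.14 in E5 (SE 0.37, limma adjusted p = 0.496) and 0.93 in OG2.2 (SE 0.45, adjusted p = 0.989). Its other 2 kept probes gave -0.32 and -0.38 in E5 and 0.65 and 0.77 in OG2.2. Cdkn2b, the neighbouring inhibitor gene of Cdkn2a, was above background in OG2.1 (6.05), E3 (6.16) and C1a1 (5.52) and not in R1 (4.95).

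Rb1, Rbl1 and E2f1, the tested genes of the RB and E2F role, had negative differences, and none passed; Rbl2 was not tested. Rb1, the founding pocket protein gene, was at 7.34 (E5) to 8.30 (OG2.1) in EpiSC lines, with a median of 7.85, and at 9.0005 in R1. All EpiSC lines lay below R1 (-1.13, SE 0.37, limma adjusted p = 0.0769). Its second probe, also below R1 in all 6 lines, gave -1.46 (SE 0.29) and passed with every probe tested (adjusted p = 0.0125), as did the mean of both probes (-1.30, adjusted p = 0.0311). E2f1, a transcription factor gene of the G1 to S step, was at 9.11 to 9.77 in EpiSC lines and 10.30 in R1 (-0.76, SE 0.28, adjusted p = 0.112). Rbl1, another pocket protein gene, differed by -0.21 (SE 0.33, adjusted p = 0.713).

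Replication genes had the smallest median spread over the EpiSC lines of the 6 roles. All 8 were above background on all 7 arrays, 6 had a negative and 2 a positive difference, and 0 passed, with a group median of -0.36. The median SD over the 6 lines was 0.22 for these members, against 0.24 for the mitosis members and 0.33 for all genes. Low spread was not particular to replication genes. In the further lists the median SD was 0.215 for 33 replication genes and 0.211 for 40 mitosis genes. Mcm5, a helicase subunit gene, was at 12.43 (T9) to 12.65 (E3) in EpiSC lines and 13.06 in R1. Its spread over the lines was 0.09 (SD, n = 6), smaller than that of all but 2.01% of genes, and its difference was -0.50 (SE 0.22, limma adjusted p = 0.166). Mcm5 passed without background correction (-0.50, adjusted p = 0.0495). Mcm2 stood at -0.51, Mcm3 at -0.43, Mcm4 at 0.35, Mcm6 at -0.30 and Mcm7 at 0.24. Pcna, the sliding clamp gene, was at -0.42, and Cdc6, the helicase loader gene, at -0.17.

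One Mcm6 probe went against the others. The probe used for the gene was at 11.99 in OG2.1, 11.86 in OG2.2, 11.41 in E3, 12.03 in E5, 11.75 in T9 and 11.65 in C1a1, against 12.08 in R1. Another was at 11.92 in OG2.1, 11.79 in OG2.2 and 10.54 in T9, but at 6.08 in E3, 6.77 in E5, 6.22 in C1a1 and 6.40 in R1. It spanned 5.85 across the EpiSC lines, while the other 3 Mcm6 probes spanned 0.43 to 0.63. The raw signals of that probe were 3647, 3556 and 1666 in OG2.1, OG2.2 and T9, against 155.3 to 195.6 in E3, E5 and C1a1 and 173.8 in R1. The level of Mcm6 in a line thus depends on the probe, and the reason was not tested. With the mean of its probes, the EpiSC minus ESC value of Mcm6 turned to 0.49 (limma adjusted p = 0.672).

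Genes of G2 and mitotic entry lay close to R1, at -0.42 to 0.43 over 8 tested members with 0 called. Cdk1, the mitotic kinase gene, was at 10.74 (C1a1) to 11.56 (E3) in EpiSC lines and at 11.46 in R1. R1 lay inside the EpiSC range, and the difference was -0.25 (SE 0.35, limma adjusted p = 0.684). The phosphatase genes Cdc25a and Cdc25c, which activate CDKs, stood at -0.13 and 0.43, the checkpoint kinase gene Chek1 at -0.14 and the mitotic transcription factor gene Foxm1 at 0.27. Ccna2, Wee1 and Cdc25b were dim, above background on 5, 4 and 1 of the 7 arrays.

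Of the 9 tested mitosis genes, 1 was called between the EpiSC lines and R1. It was Ttk, read by 1 probe that passed the detection limit. Ttk, which encodes the spindle checkpoint kinase Mps1, was at 6.68 in OG2.1, 6.59 in OG2.2, 6.71 in E3, 6.85 in E5, 6.62 in T9 and 6.84 in C1a1, against 7.66 in R1. The EpiSC lines lay within 0.26 of each other and all below R1 (-0.95, SE 0.22, limma adjusted p = 0.0246). The call was lost without T9 (-0.93, adjusted p = 0.0544) and with a trended and robust variance (adjusted p = 0.0552). Bub1b, which encodes another checkpoint protein, was at 9.17 to 10.05 in EpiSC lines and 10.08 in R1 (-0.59, SE 0.34, adjusted p = 0.304). Aurka, the Aurora kinase gene of the spindle poles, was at 0.38, Top2a, the DNA topoisomerase gene, at -0.30, and Cdc20, which activates the anaphase-promoting complex, at 0.16. Birc5, the survivin gene of the chromosomal passenger complex, stood at 0.10, or at -0.0037 with median scaling, and Plk4, the centriole duplication kinase gene, at -0.33.

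Between EpiSC lines, the members varied about as much as other genes. The median SD over the 6 lines was 0.31 for the 38 members and 0.33 for all genes, 16 members lay above the median gene, and 29 members had a range under 1. Plk1 (1.78), Ccnd2 (1.35), Cdkn1a (0.57) and Mad2l1 (0.54) had the widest SDs. Against the other 5 lines, limma called 1 member in C1a1 (background 0.0651% of genes, 0.0217% higher and 0.0434% lower) and 0 in OG2.1 (0.0434%), OG2.2 (0.0%), E3 (0.0651%), E5 (0.0%) and T9 (0.0109%). At an unadjusted p under 0.05 there were 3 members in C1a1, 0 in OG2.1, 1 in OG2.2, 1 in E3, 3 in E5 and 2 in T9. In the same order, the counts over all 9212 genes were 560, 551, 487, 574, 746 and 201. A difference of at least 1 either way was seen for 1 member in C1a1 (5.23% of all genes), 2 in OG2.1 (6.42%), 3 in OG2.2 (5.03%), 1 in E3 (4.87%), 2 in E5 (7.38%) and 0 in T9 (3.09%). OG2.1 was the lowest of the 6 lines for 14 of 38 members (36.8%, against 17.6% of all genes) and the highest for 6 (15.8%, against 15.9%), shares that were not tested. In OG2.1, 8 of the 9 mitosis members were below the mean of the other lines, where 52.9% of all genes were, and the median over the 9 was -0.31. The 40 further mitosis genes did not share this, with 22 below and 18 above and a median of -0.08. Of the 33 further replication genes, 27 were below and 6 above, with a median of -0.23. The 17 checkpoint and p53 genes had 13 below and 4 above (median -0.22), and the 18 G1 to S regulators 12 and 6 (median -0.10). These counts were not tested.

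**Figure D3:**
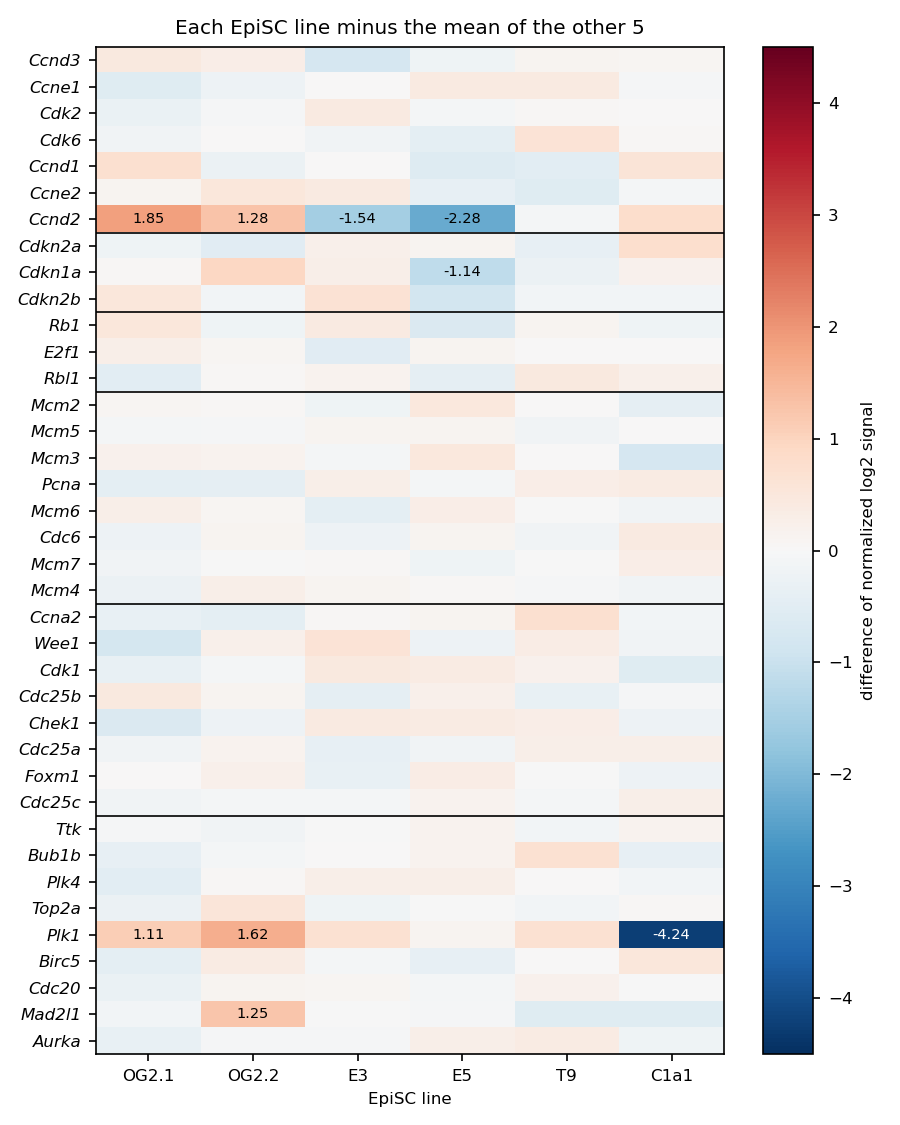
Difference of each EpiSC line (x axis) from the mean of the other 5 in normalized log2 signal (colour) for the 38 tested members (y axis), grouped by role with black lines. Values are printed where they reach 1 either way, and the darkest cell is Plk1 in C1a1 at -4.24.

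Mad2l1, the spindle checkpoint gene that restrains Cdc20, was higher in OG2.2 than elsewhere, on the 1 probe that passed the detection limit. It was at 12.10 in OG2.2, against 10.62 in both T9 and C1a1, 11.01 in E5, 11.06 in E3 and 10.97 in OG2.1. R1 was at 10.83. The difference of OG2.2 from the other 5 lines was 1.25 (SE 0.28), while their SD was 0.22 (n = 5), and it did not pass over all genes (limma adjusted p = 0.568). Bub1b and Ttk, genes of the same checkpoint, stood at -0.10 and -0.15 in OG2.2. Ccna2 and Bub1b were highest in T9, at 6.41 and 10.05, and Mcm3 lowest in C1a1, at 9.20.

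Plk1 stood apart in C1a1. Plk1 encodes Polo-like kinase 1, which drives mitotic entry, centrosome maturation, chromosome segregation and cytokinesis. Its level was 6.61 in C1a1, against 11.06 in OG2.1, 11.49 in OG2.2, 10.71 in E3, 10.25 in E5 and 10.70 in T9, with 10.14 in R1. The raw signals were 197.5 in C1a1, against 1312 (E5) to 2886 (OG2.2) in the other EpiSC lines and 1214 in R1. Plk1 was still above background in C1a1. The difference from the other 5 lines was -4.24 (SE 0.44), or 18.9-fold lower on a scale with an added offset, and their SD was 0.46. Plk1 was examined because this value was already known, so its call by limma is a description and not a test. The call was lost in the deposited log2 values, without background correction, without the detection filter, with the mean of each gene's probes and without any 1 of the other 5 lines, while the value stayed between -4.53 and -3.23. Of 9212 genes, 3 lay at least 3 below the lowest other EpiSC line in C1a1 (0.0326%) as read: Plk1, Cdkn1c and Nnat. Cdkn1c and Nnat were not above background in C1a1, and with C1a1 raised to its lowest detected signal their gaps were 3.86 and 2.51, against 3.64 for Plk1. Only 1 Plk1 probe was listed on the array, so no second probe could be set against it.

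No tested partner gene of Plk1 had a reading as low against the other lines in C1a1. Of 28 listed genes that act with Plk1, 22 were tested, 0 were called, and the differences ran from -0.56 (Cdk1) to 0.50 (Birc5) with a median of -0.14, against -0.01 for all genes. Of the 22, 17 were below the mean of the other lines and 5 above, where 51.3% of all genes were below, and this share was not tested. At an unadjusted p under 0.05 there were 0 of the 22, against 560 of 9212 genes. Bora, the cofactor through which Aurka activates Plk1, was at -0.03, and Aurka itself at -0.20. Cdc25c and Wee1, substrates of Plk1 at mitotic entry, were at 0.26 and -0.17, and Foxm1 at -0.24. The cytokinesis genes Kif20a, Prc1, Kif23 and Cep55 were at -0.12, -0.13, -0.36 and -0.21. Kif20a was above background in E5 alone, so it could not show a fall in C1a1. The spindle genes Tpx2, Incenp, Nedd1, Bub1b, Cdc20 and Ttk were at 0.05, -0.24, -0.15, -0.38, -0.02 and 0.15. The Polo-like kinase genes Plk2, Plk3 and Plk4 stood at -0.25, -0.22 and -0.13. Pkmyt1 and Cdc25b were at 0.02 and -0.04, and Cdc25b, above background in OG2.1 alone, could not show a fall either. Wee1 was above background in 3 EpiSC lines, C1a1 not among them.

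**Figure D4:**
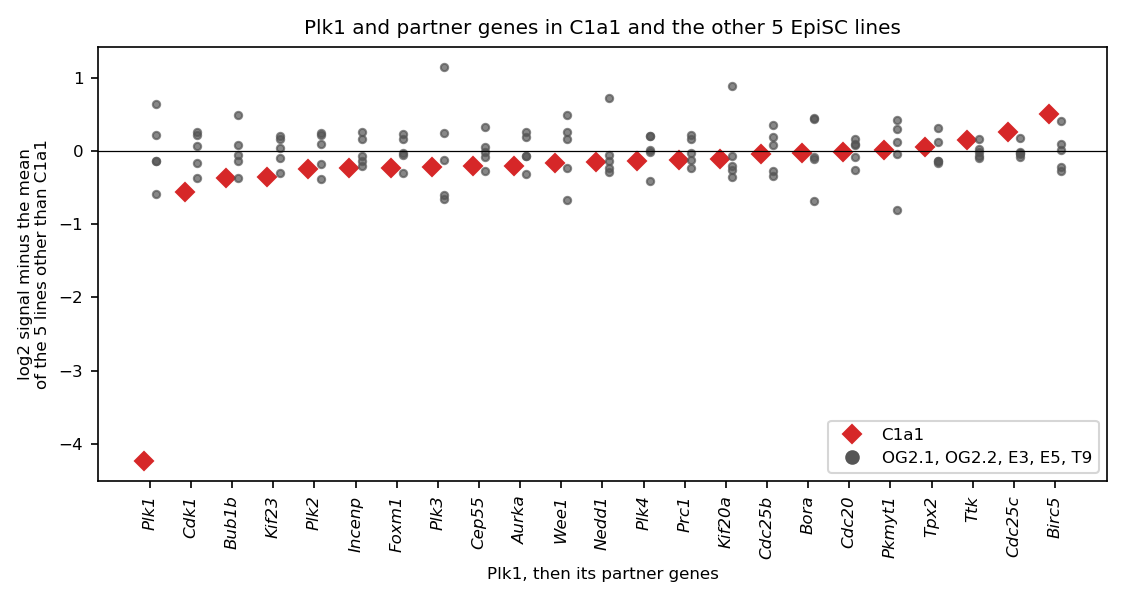
Normalized log2 signal minus the mean of the 5 lines other than C1a1 (y axis) for Plk1 and 22 partner genes (x axis), with C1a1 as diamonds and the other 5 EpiSC lines as dots. Plk1 in C1a1 is at -4.24, and partner genes in C1a1 lie between -0.56 and 0.50.

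Plk1 lies on chromosome 7 (assembly GRCm38.p6). Of the 8 protein-coding genes on each side, 7 were tested, and they differed by -0.66 to 0.35 in C1a1. The lowest was Dctn5, the next gene on one side, at 9.64 in C1a1 against 10.17 to 10.53 in the other 5 EpiSC lines (-0.66, SE 0.25, limma adjusted p = 0.809).

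The start window of Plk1 is shown with that of Ttk, one of the members called between the EpiSC lines and R1. Both hold the CHR motif (TTTGAA) known from genes that peak in G2 and mitosis, as do other tested members. The sequences are from RefSeq (GRCm38.p6), plus strand, 250 bases before to 50 after the start, at chr7:122159185-122159484 for Plk1 and chr9:83834439-83834738 for Ttk. Capitals mark CHR, which lies on the minus strand in Ttk, and CCAAT boxes.
Plk1: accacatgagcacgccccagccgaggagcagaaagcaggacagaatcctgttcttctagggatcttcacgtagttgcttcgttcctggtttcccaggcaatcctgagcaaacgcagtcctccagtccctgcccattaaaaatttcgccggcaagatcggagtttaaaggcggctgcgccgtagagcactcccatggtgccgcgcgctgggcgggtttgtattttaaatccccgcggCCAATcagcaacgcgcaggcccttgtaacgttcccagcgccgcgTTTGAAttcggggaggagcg
Ttk: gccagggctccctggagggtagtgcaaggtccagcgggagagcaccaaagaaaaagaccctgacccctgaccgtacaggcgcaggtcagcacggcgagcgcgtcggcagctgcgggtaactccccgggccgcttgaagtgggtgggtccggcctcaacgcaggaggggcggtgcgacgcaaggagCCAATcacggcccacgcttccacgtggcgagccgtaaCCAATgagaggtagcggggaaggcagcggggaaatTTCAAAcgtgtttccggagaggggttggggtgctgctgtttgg

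These motifs were spread over the roles unevenly. CHR, searched on both strands, was in 12 of the 40 windows that 36 members had in the table, or 30.0%, against 17.9% of 32851 windows in all, and in 7 of 11 windows of mitosis genes. E2F motifs (TTTGGCGC, TTTCCCGC, TTTCGCGC or TTTGCCGC) were in 10 of 40 windows, or 25.0%, against 2.27% of all, with 5 of the 8 replication gene windows and 0 of the 11 mitosis gene windows. CCAAT was in 24 of 40 (60.0%, against 37.4%). Of 9 tested members with CHR, the other 8 (Aurka, Bub1b, Cdc20, Cdk1, Cdkn2b, Mcm2, Top2a and Ttk) differed by -0.56 to 0.15 in C1a1, where Plk1 stood at -4.24. A match is a description of the letters in the window and not a site.

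**Figure D5:**
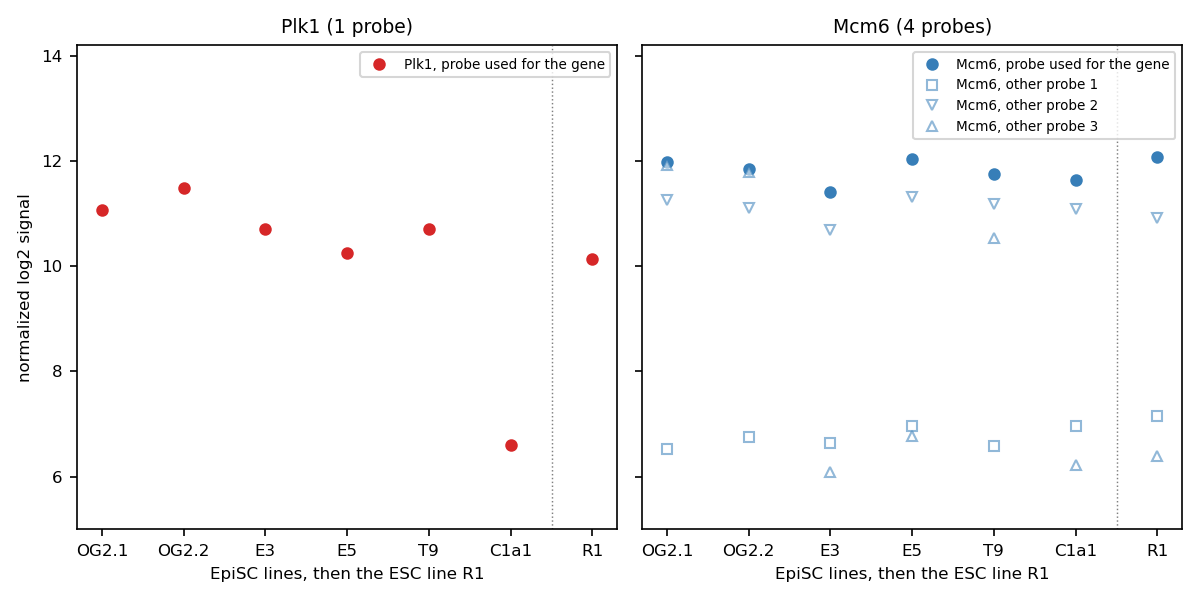
Normalized log2 signal (y axis) of the single Plk1 probe (left) and the 4 Mcm6 probes (right) in the 6 EpiSC lines and R1 (x axis). Plk1 is at 6.61 in C1a1 and at 10.14 to 11.49 elsewhere; 1 Mcm6 probe lies at 10.54 to 11.92 in 3 lines and at 6.08 to 6.77 in the other lines and R1.

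Over all 6 EpiSC lines, the Plk1 difference from R1 was -0.0006 (SE 1.53, limma adjusted p = 0.9997), and without C1a1 the difference was 0.71 (adjusted p = 0.346). Another CDK inhibitor gene outside the set, Cdkn1c, was named after its values were seen. It encodes p57, the imprinted member of the Cip/Kip family. It was at 5.13 in C1a1 and not above background there, against 12.78 in OG2.1, 12.19 in OG2.2, 9.97 in E3, 9.25 in E5 and 10.36 in T9, with 7.64 in R1. The fitted difference of C1a1 was -5.78 (SE 1.27) and did not pass over all genes (limma adjusted p = 0.499). Cdkn1c also spanned 3.53 over the other 5 lines. Atm, the DNA damage kinase gene, was at 5.46 in C1a1 against 7.42 to 8.30 in the other EpiSC lines and 6.65 in R1 (-2.33, SE 0.37, adjusted p = 0.266), and was likewise named after its values were seen.

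Other listed genes of the same pathways that were called were all lower in EpiSCs than in R1, except that E2f6 (1.05, SE 0.32, limma adjusted p = 0.0631) passed as higher in 3 alternative settings. Of 18 tested G1 to S regulators, 0 were higher and 2 lower: E2f2 (-1.61, SE 0.33, limma adjusted p = 0.0138) and E2f3 (-1.17, SE 0.23, adjusted p = 0.0111), activator E2F genes. E2f3 was at 6.97 to 7.25 in EpiSC lines and 8.28 in R1. Of 33 replication genes, 2 were lower, Cdt1 (-0.91, SE 0.24, adjusted p = 0.0385), a licensing factor gene, and Gmnn (-0.92, SE 0.24, adjusted p = 0.0353), which encodes geminin, the inhibitor of Cdt1. Of 40 further mitosis genes, Cep55, which acts in the final cut of cytokinesis, was lower (-1.89, SE 0.27, adjusted p = 0.00318). Of 17 checkpoint and p53 genes, Brca2, a DNA repair gene, was lower by -1.12 (SE 0.23, adjusted p = 0.0141) and Hus1, a checkpoint clamp gene, by -0.88 (SE 0.21, adjusted p = 0.0264). Among the Plk1 partners, Plk3, a stress-responsive Polo-like kinase gene, was lower (-2.58, SE 0.60, adjusted p = 0.0248), with Cep55 and Ttk. The shares called, all of them lower, were 11.1%, 6.06%, 2.5%, 11.8% and 13.6% of these 5 lists. Of all genes, 8.11% were called lower and 15.2% in either direction. The shares of the G1 to S, checkpoint and partner lists thus lay above the lower share of all genes, and the other lists below it. These shares were not tested. The list medians were 0.11, -0.21, -0.32, -0.56 and -0.17. Gmnn lost its call without background correction and with a trended and robust variance, and Cdt1 in the deposited values. The replication list had 0 calls without OG2.1, OG2.2 or T9, and 1 without E3 (Gmnn) or without E5, where it was Gins3 in place of Cdt1 and Gmnn. Without T9, Brca2 was the 1 checkpoint call, and without OG2.1 the mitosis list had 2, Cep55 and Ube2c. Gins3, Ube2c and E2f6 were named after their values were seen.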

How the data were processed

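Per the file headers, the authors deposited bead-summarised probe intensity values for 7 arrays, neither normalized nor background subtracted, and a detection p-value for each probe against the negative control beads of its array. The authors also deposited log2 values with 1 shared set of quantiles. The submitters' processing notes list RMA, lumi and BeadStudio 3.2 without a role. Each deposited log2 column followed the signal of its own array (after centring each probe, own-array correlations reached 0.854 or more and other-array ones 0.305 or less).

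Background correction on the detection p-values and quantile normalization used limma 3.58.1's neqc (R 4.3.3) with an offset of 16. A probe needed 1 array with detection p under 0.01 to stay, 13396 of 25697, of which 12626 had a symbol in the platform annotation. The platform table gave 1 symbol for 23978 probes, and 15 were updated through the RefSeq table. The brightest kept probe stood for each of 9212 genes. An offset makes folds of dim genes too small, and precision is limited by how few arrays there are.

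Limma, 2-sided with Benjamini-Hochberg adjustment over all genes and a threshold of 0.05, compared EpiSCs with the ESC line (5 residual degrees of freedom, all from EpiSC lines) and each EpiSC line with the other 5 (4). The code was tested on simulated data. An "at least" fold was taken against the lowest log2 value among detected probes of the dim array (its own value where that was higher). The members and lists were chosen with earlier results of these data known. Every tested member could be named, with up to 4 called genes of each other list and all Plk1 partners in C1a1; Cdkn1c, Atm, Nnat, E2f6, Gins3 and Ube2c fall outside this rule, as does the Mcm6 probe. The alternatives left out a line at a time, normalized the EpiSC arrays alone, used a trended and robust variance, averaged a gene's probes, moved the detection limit to 0.05 or dropped it, scaled by medians, skipped background correction or took the deposited values. Testing every kept probe was added after the data had been seen. The headers name no slide.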

Additional observations from a re-analysis of the deposited data

Results flagged for a closer look

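In 3 of the 38 tested members, 1 EpiSC line lay apart from the other 5, by a gap that took up most of the range of the lines. Chance marks about 1 in 20 such groups, so the count is a description and not a result about the members. Plk1 was at 6.61 in C1a1. Mad2l1 was at 12.10 in OG2.2. E2f1 was at 9.11 in E3, against 9.56 to 9.77 in the other 5 lines, and 10.30 in R1.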

How the results depend on the processing

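The count of members called lower in EpiSCs (2) was 4 without background correction and with the mean of a gene's probes, and 1 (without T9) to 3 (without E3) with a line left out. The count of members called higher was 0 in every setting. The member called in C1a1 was 0 in the deposited log2 values, without background correction, without the detection filter, with the mean of probes and without any other line (0 to 0). Plk1 in C1a1 was then -4.53 (deposited), -3.23 (no background correction), -4.24 (no detection filter or mean of probes) and -4.39 to -4.08 (a line left out), with limma adjusted p-values of 0.104, 0.123, 0.140, 0.0503 and 0.0738 to 0.192. With every probe tested it passed (adjusted p = 0.0375). G1 to S regulators called higher numbered 1 (E2f6) without background correction, with the mean of probes and with a trended and robust variance, and replication genes called lower numbered 1 (Gmnn) in the deposited values. With a line left out, replication genes called lower ran from 0 to 2, mitosis genes from 1 to 2 and checkpoint genes from 1 to 2. Signs turned for Cdk1 (0.19), Cdc6 (0.0741) and Mcm6 (0.49) with the mean of probes, for Plk1 between cell types without background correction (0.12) and without C1a1 (-0.27 to 0.71 over the lines left out), and for Birc5 with median scaling (-0.0037). None of these was past the test. The causes were not tested. No paired analysis was possible because the ESC group has 1 array, and a slide block was not run because no header names one. Probes near background limit Cdkn2a, above background on 2 of 7 arrays, and Cdk6, Cdc25b, Ccna2, Wee1 and Cdkn2b.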
